A study of Mus musculus with 2 samples.

Results

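Macrophages of mouse mammary tumours were ordered by how much of their RNA coded for MHC class II antigen presentation, and within each library the cells at the top of this order were compared with those at the bottom. The cells came from the tumours of PyMT mice of the C57BL/6N strain; the PyMT transgene, polyoma middle T, gives rise to mammary carcinomas. Cells were selected for CD11c, the integrin encoded by Itgax, and captured with the 10x Genomics 3' chemistry, which counts captured molecules as UMIs (unique molecular identifiers). The labels gave 1 group of 2 libraries, both wild-type (WT), called replicate 1 and replicate 2 here. No treatment, age, sex, tumour stage or transgene promoter is given in the sources used here, and whether each library is a different animal is not stated.

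A barcode counted as a macrophage when it had at least 2000 UMIs, at most 10% mitochondrial UMIs, at least 0.3% of its UMIs in the 3 C1q genes and under 3 UMIs summed over Top2a, Birc5, Ube2c and Cdk1. This left 1064 of 2045 barcodes of 2000 or more UMIs in replicate 1 and 573 of 1299 in replicate 2, in all 1637 of 3344. The score of a cell was the percent of its UMIs in H2-Aa, H2-Ab1, H2-Eb1 and Cd74. Each library was cut by score into 3 tiers of nearly equal size, low, middle and high. The low and the high tier held 354 cells each in replicate 1 and 191 cells each in replicate 2, so 545 low cells were set against 545 high cells. The tiers were chosen by the measured UMIs of these 4 genes, which were therefore taken out of every test and of the library sizes, and their difference is a description of the choice. The comparison was repeated after removal of every cell with at least 0.4% of its UMIs in Spp1 or at least 0.1% in Pf4, with tiers taken anew among the 1077 cells left.

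MHC class II molecules are pairs of alpha and beta chains that show peptides from endocytosed protein to CD4 T cells. The invariant chain, encoded by Cd74, escorts new pairs to endosomes, where proteases such as cathepsin S trim it to a small fragment. H2-DM exchanges that fragment for peptide, and H2-O restrains H2-DM. Ciita is the coactivator that switches the class II genes on, through the RFX complex and its partners bound to the X and Y boxes of their promoters, and interferon gamma is the classical inducer of Ciita in macrophages. Tumour macrophages are commonly described along such an axis of high and low MHC class II, with resident macrophages that carry scavenger receptors and monocyte-derived cells as different sources.

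The score ran from 0% to 14.0% of UMIs in replicate 1, with a median of 4.42%. In replicate 2 it ran from 0.0256% to 14.6%, with a median of 6.08%. Low, middle and high tiers had median scores of 1.72%, 4.42% and 7.05% in replicate 1 and of 2.76%, 6.08% and 8.67% in replicate 2. The tiers are ranges of 1 score and were not defined as cell types. Cells next to a cut in a sorted order have close scores by construction, so the cuts cannot show whether separate groups of cells exist. In replicate 1 the last low cell had 3.19% and the first middle cell 3.20%, and the last middle cell and the first high cell both had 5.59%. In replicate 2 the low tier ended at 4.52% and the middle tier began at 4.53%, while the middle tier ended at 7.32% and the high tier began at 7.34%. A high cell of replicate 1 could thus have scored as a middle cell in replicate 2. Each of the 4 genes took part in the score. H2-Aa made up 0.468%, 1.29% and 2.05% of the UMIs of the low, middle and high tiers of replicate 1, and 0.635%, 1.58% and 2.32% in replicate 2. Cd74 made up 0.281%, 0.795% and 1.43% in replicate 1 and 0.509%, 1.31% and 2.10% in replicate 2.

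**Figure D1:**
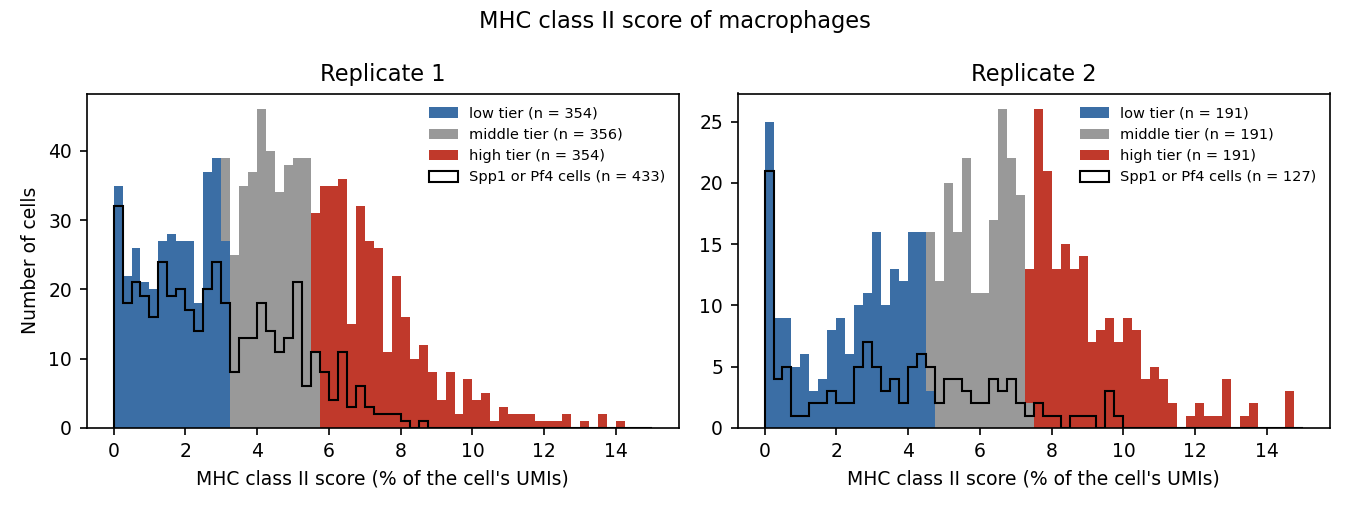
Number of macrophages (vertical axis) by MHC class II score in percent of the cell's UMIs (horizontal axis), in replicate 1 and replicate 2, with the low, middle and high tiers stacked in blue, grey and red. The black outline, drawn over them from 0, counts the 433 and 127 cells that met the Spp1 or the Pf4 criterion; they lie mostly at low scores.

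Spp1 and Pf4 cells were spread unevenly over the tiers. Of 70 cells past the Spp1 criterion in replicate 1, 68 (97.1%) lay in the low tier and 0 in the high tier, where the exact 95% interval reached 1.04% of that tier. In replicate 2 the low tier held 25 of 26 (96.2%) and the high tier 1. Spp1 encodes osteopontin, a secreted matrix protein. Of the 372 and 103 cells past the Pf4 criterion, 192 (51.6%) and 57 (55.3%) lay in the low tier, and 50 (13.4%) and 11 (10.7%) in the high tier. Pf4 encodes the chemokine platelet factor 4, which tissue macrophages also make. Seen from the tiers, Pf4 cells were 54.2% of the low tier of replicate 1 (exact 95% interval 48.9% to 59.5%) and 14.1% of its high tier (10.7% to 18.2%). In replicate 2 they were 29.8% of the low tier (23.5% to 36.9%) and 5.76% of the high tier (2.91% to 10.1%). These intervals cover counting error only.

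Other properties of the libraries moved with the score or bear on it. Total counts were 17369071 UMIs in replicate 1 and 13317214 in replicate 2, and macrophages had median depths of 5170 and 6743 UMIs per cell. Median depths of the low and high tiers were 5251 and 5149 UMIs per cell in replicate 1 and 6855 and 6836 in replicate 2. Summed over the same number of cells, the low tier held more UMIs, 2293934 against 1958477 and 1475946 against 1370439. Low cells also had more genes with a UMI, 1632 against 1478 and 1866 against 1716. The median mitochondrial share fell from 2.82% in the low tier to 2.08% in the high tier of replicate 1, and from 3.20% to 2.24% in replicate 2. The median C1q share, part of the choice of cells, was 1.05% in the low and 1.47% in the high tier of replicate 1, and 1.44% and 1.60% in replicate 2. Barcodes of at most 50 UMIs, which hold free RNA, had 2.24% and 3.30% of their UMIs in the 4 score genes, while epithelial tumour cells captured in the same libraries had 0.1% and 0.0599%. At the edge of the C1q criterion, the 42 and 18 barcodes at 0.2% to 0.3% had median scores of 2.37% and 4.36%, and the 43 and 13 at 0.3% to 0.4% had 3.12% and 4.58%. No member barcode was shared by the libraries.

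Markers of other cell types were measured in the same tiers, and their part in the results was not tested except where stated. Of the macrophage markers that could be tested, 4 of 7 were higher in the high tier (Adgre1, Csf1r, Fcgr1 and Apoe) and 0 were lower. Among all tested genes 8.64% were higher and 6.3% lower. Summed markers of conventional dendritic cells were at 13.2 to 14.6 CPM (counts scaled to a common library total) in the low and 16.9 to 22.1 CPM in the high tiers, with Flt3 at 9 and 12 UMIs and Zbtb46 at 6 and 4 UMIs over both libraries. Dpp4, the 1 marker of that list that could be tested, was called higher on 20 and 35 UMIs (log2 fold change 1.23, SE 0.41, adjusted p = 0.0442). The cDC1 markers summed to 102 to 151 CPM in the low and 252 to 254 CPM in the high tiers, most of it Cadm1 (319 and 641 UMIs), while Xcr1 had 12 and 8 UMIs. Cadm1 was called higher (log2 fold change 1.41, SE 0.14, adjusted p = 1.08e-07), and so was Clec9a, another cDC1 marker, on 12 and 32 UMIs. The cDC2 markers summed to 384 CPM in the low and 256 CPM in the high tier of replicate 1, and to 173 and 237 CPM in replicate 2. Mgl2 and Sirpb1a were called higher and Clec10a lower. Clec10a went from 187 to 62.0 CPM in replicate 1 but from 40.8 to 47.7 CPM in replicate 2, so its fall was that of replicate 1 alone. Epithelial markers summed to 272 to 599 CPM in the low and 189 to 341 CPM in the high tiers, with Krt8 and Wfdc18 called lower. Plasmacytoid dendritic cell markers summed to 951 to 1022 CPM in the low and 692 to 722 CPM in the high tiers, with Bst2 and Cox6a2 called lower and Siglech higher. Monocyte markers summed to 210.2 to 391 CPM in the low and 199.9 to 388 CPM in the high tiers, and 0 of 3 tested were called. The B cell, T and NK cell, neutrophil, fibroblast and endothelial lists each summed to between 1.10 and 60.4 CPM in the low and high tiers. Pecam1, the 1 endothelial marker tested, was called higher on 10 and 26 UMIs (log2 fold change 1.78, SE 0.53, adjusted p = 0.0224). Mature dendritic cell markers ranged from 12.5 to 39.9 CPM in the low and from 17.7 to 75.5 CPM in the high tiers. Cells with at least 2 UMIs over 7 dendritic cell genes made up 7.91%, 6.18% and 6.21% of the low, middle and high tiers of replicate 1, and 2.62%, 5.24% and 3.66% in replicate 2. These cells were left out in an alternative, which gave 666 higher and 478 lower genes in place of the 673 and 491 described next.

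Across all macrophages, 673 of 7788 tested genes were higher in the high tier (8.64%) and 491 were lower (6.3%), so 14.9% of genes were called at an adjusted p under 0.05. Called genes that differed by 2-fold or more numbered 149 higher and 217 lower. The fold had the same sign in both libraries for 1155 of the 1164 called genes. A call favours genes whose library folds agree, so this count is a description. Over all tested genes the folds of the libraries correlated at 0.51 (Pearson) and 0.43 (Spearman). The middle tier lay between the low and the high tier in both libraries for 811 called genes (69.7%), against 23.3% of all tested genes. That tier is cut from the same score, and its sums enter the fit for the spread. Genes called for a difference between low and high lie between more often, so these shares are a description and no separate support. The direction also depended on scale: with totals in place of TMM factors the median log2 fold change moved by -0.15, and 434 genes were higher and 944 lower, so the share of higher genes among those called went from 57.8% to 31.5%. Changes are given on the TMM scale, on which the median gene stood at -0.01.

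**Figure D2:**
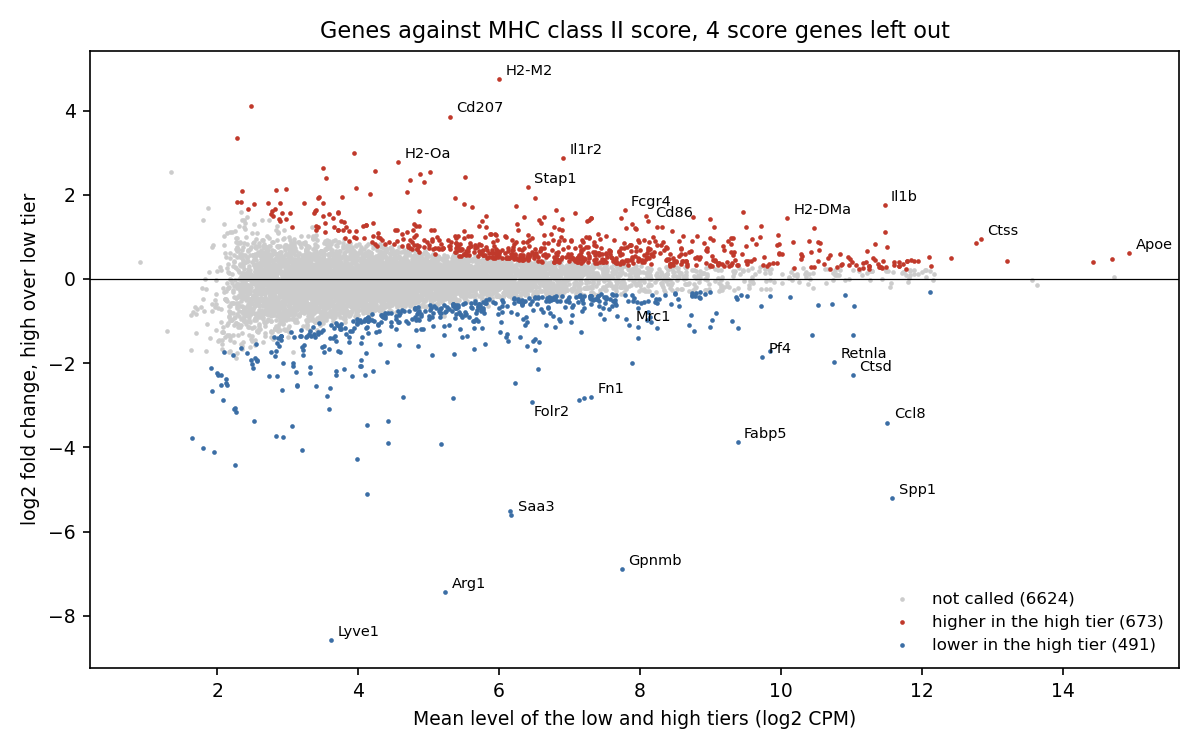
Log2 fold change of the high over the low tier (vertical axis) against the mean level over both tiers and libraries in log2 CPM (horizontal axis) for 7788 genes, with 673 higher genes in red, 491 lower genes in blue and the others in grey. H2-M2 has the largest rise, and Gpnmb, Spp1, Ccl8 and Fabp5 lie far below 0; Lyve1 and Arg1 have 0 and 1 UMIs in the high tiers, so their plotted folds depend on the fit's prior count.

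Genes that work with class II molecules rose. Of 15 tested genes in the list of class II partners and regulators, 10 were higher in the high tier and 0 were lower, with a median log2 fold change of 0.94. Levels below stand in the order low, middle and high where 3 are given for a library, and low against high where 2 are. H2-DMa (chromosome 17, 34119541 to 34139101), the alpha chain of H2-DM, was at 459, 1108 and 1489 CPM in replicate 1 and 733, 1211 and 1677 CPM in replicate 2. Its low and high values did not overlap, and the fold was 2.71 (log2 fold change 1.44, SE 0.11, adjusted p = 5.79e-10). H2-DMb1, which encodes a beta chain of the same heterodimer, went from 274 to 998 CPM in replicate 1 and from 439 to 1109 CPM in replicate 2 (log2 fold change 1.60, SE 0.11, adjusted p = 1.79e-10). H2-DMb2, the other beta chain gene, was at 16.2 against 29.6 CPM in replicate 1 and 16.7 against 29 CPM in replicate 2 (log2 fold change 0.84, SE 0.26, adjusted p = 0.0317), and reads of the 2 similar beta chain genes may be shared. H2-Oa (chromosome 17, 34092340 to 34095234), the alpha chain of the inhibitor of H2-DM, was at 4.58, 13.2 and 40.6 CPM in replicate 1 and 8.03, 25 and 41.7 CPM in replicate 2. This 6.81-fold rise (log2 fold change 2.77, SE 0.31, adjusted p = 4.54e-07) was the largest of the list. Its partner H2-Ob went from 10.4 to 24.3 CPM in replicate 1 and from 4.68 to 16.2 CPM in replicate 2 (log2 fold change 1.36, SE 0.33, adjusted p = 0.00575). Ciita (chromosome 16, 10480059 to 10528418), the class II coactivator, rested on 12 UMIs in the low and 32 in the high tiers, at 2.5 against 8.69 CPM in replicate 1 and 4.01 against 14.5 CPM in replicate 2 (log2 fold change 1.81, SE 0.46, adjusted p = 0.00803).

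Ctss, which encodes the protease that trims the invariant chain, was at 4427, 4715 and 8718 CPM in replicate 1 and 5640.0, 6916 and 10577 CPM in replicate 2. Both high tiers were above both low tiers (log2 fold change 0.94, SE 0.08, adjusted p = 1.78e-09), while the middle tier of replicate 1 lay close to its low tier. Lgmn, the asparaginyl endopeptidase legumain, was 1.33-fold higher (log2 fold change 0.41, SE 0.08, adjusted p = 0.000972). Ifi30, the lysosomal thiol reductase GILT, was at 527 against 726 CPM in replicate 1 and 724 against 747 CPM in replicate 2 and was not called (adjusted p = 0.0939). Unc93b1, the chaperone of endosomal Toll-like receptors, was 1.97-fold higher (log2 fold change 0.98, SE 0.10, adjusted p = 4.65e-08). Cd83, which protects surface class II from ubiquitin ligases, was 1.94-fold higher (log2 fold change 0.96, SE 0.10, adjusted p = 1.08e-07). March1, the ligase that Cd83 opposes, had a log2 fold change of 0.60 (SE 0.42) and was not called. The RFX subunits Rfxank and Rfxap stood at -0.26 and 0.00, with 32 and 20 and with 23 and 17 UMIs in the low and high tiers. Rfx5 had 8 and 7 UMIs and H2-Eb2, a class II beta gene, had 3 and 6, too few to test.

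The promoters of these genes are shown because the X and Y boxes are where the class II factors bind. H2-Aa and H2-Eb1 are score genes, whose difference is set by the choice of tiers and was not tested. RefSeq windows (build GRCm38.p6, chromosome 17) of 250 bases before the start were searched on both strands for TGATTGG, the core of the Y box with its inverted CCAAT, and for AACNNATG, letters seen at the X box. The letters were chosen after these promoters had been read. Capitals mark the matches.
H2-Aa (chr17:34287855-34287913, minus strand): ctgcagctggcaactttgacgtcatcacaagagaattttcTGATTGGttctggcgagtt
H2-Eb1 (chr17:34305766-34305824, plus strand): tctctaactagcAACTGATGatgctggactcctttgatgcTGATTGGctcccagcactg
H2-DMb1 (chr17:34153088-34153146, plus strand): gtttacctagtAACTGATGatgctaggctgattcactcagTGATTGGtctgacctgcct
H2-DMb2 (chr17:34145117-34145175, plus strand): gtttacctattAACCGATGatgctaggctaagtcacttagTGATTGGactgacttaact
H2-Oa (chr17:34092294-34092352, plus strand): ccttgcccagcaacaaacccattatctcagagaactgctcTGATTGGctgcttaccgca
H2-Ob (chr17:34238806-34238864, plus strand): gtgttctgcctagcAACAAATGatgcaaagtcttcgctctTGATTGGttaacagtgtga

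Only promoters that held TGATTGG are shown. Of these, H2-Eb1, H2-DMb1, H2-DMb2 and H2-Ob also held AACNNATG 18 to 21 bases before it. H2-Eb2 held both as well, with a gap of 20 bases. Over 32851 promoter windows of the same length, 7.23% held TGATTGG, 7.71% held AACNNATG, and 15 (0.0457%) held AACNNATG followed by TGATTGG after 10 to 30 bases. The letters were chosen with the class II promoters already read, so these shares are a background and no test. TGATTGG was not in the windows of H2-DMa or of H2-M2. H2-Ab1 and Ciita were not searched.

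Class I molecules show peptides from the cell's own proteins to CD8 T cells. Of 22 tested genes of class I presentation, 13 were higher and 0 lower, with a median log2 fold change of 0.37, and without TMM 9 were higher with a median of 0.22. The shared light chain B2m was at 8471 against 11381 CPM in replicate 1 and 7735 against 10507 CPM in replicate 2 (log2 fold change 0.43, SE 0.07, adjusted p = 5.82e-05). The classical heavy chains H2-D1 and H2-K1 rose by 0.46 and 0.32 on the log2 scale (adjusted p = 7.68e-05 and 0.0078); reads may be shared among such similar class I genes. H2-T23, which encodes Qa-1, the class Ib ligand of NKG2A, was at 267, 349.7 and 551 CPM in replicate 1 and 251, 358 and 496 CPM in replicate 2. Both high tiers were above both low tiers (log2 fold change 1.02, SE 0.10, adjusted p = 1.02e-07).

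The largest log2 fold change among the genes called higher was that of H2-M2 (chromosome 17, 37480851 to 37483552), a class Ib heavy chain gene of the M region. It was at 5, 12.7 and 141 CPM in replicate 1 and 4.01, 15.3 and 106 CPM in replicate 2. Both high tiers were far above both low and both middle tiers, with a fold of 27 (log2 fold change 4.76, SE 0.24, adjusted p = 3.88e-13). H2-M2 was seen in a minority of cells: 14.7% and 13.6% of high cells had an H2-M2 UMI, against 3.1% of low cells in each library. After thinning of each cell to 2000 UMIs these shares were 11% and 9.9% against 1.7% and 0.5%, and 0 of the 103 and 40 epithelial cells had one, which allows shares of up to 2.91% and 7.5%. Cd207 (chromosome 6, 83671215 to 83677857), the C-type lectin langerin, was at 6.66, 17.8 and 76.5 CPM in replicate 1 and 2.68, 15.3 and 71.5 CPM in replicate 2 (log2 fold change 3.86, SE 0.27, adjusted p = 1.78e-10). A Cd207 UMI was seen in 6.2% and 5.2% of thinned high cells, and 3 cells held 65.5% of its UMIs in the high tier of replicate 2. Il1r2, the decoy receptor of interleukin-1, was at 17.5, 57.5 and 109 CPM in replicate 1 and 38.1, 106 and 318 CPM in replicate 2 (log2 fold change 2.87, SE 0.18, adjusted p = 1.27e-11). Its low and high tiers did not overlap, and 10.7% and 24.1% of thinned high cells had a UMI, against 2.8% and 4.7% of low cells.

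Lilra5, an activating immunoglobulin-like receptor, rose 5.33-fold, Stap1, an adaptor of the Csf1 receptor, 4.53-fold, and Qpct, the glutaminyl cyclase, 3.3-fold (adjusted p = 4.59e-07, 1.6e-09 and 3.11e-08). The C-type lectin-like receptors Klra2 and Klrb1b rose 3.77-fold and 3.46-fold (adjusted p = 3.03e-08 and 1.03e-06). Slamf8, a receptor of the SLAM family, was at 29.6, 90.1 and 89.8 CPM in replicate 1 and 16.1, 29.1 and 60.5 CPM in replicate 2 (log2 fold change 1.72, SE 0.21, adjusted p = 2.28e-06), so its middle and high tiers were level in replicate 1. Siglech, otherwise a marker of plasmacytoid dendritic cells and microglia, was higher as well, with 21 UMIs in the low and 94 in the high tiers, while Ccr9 of plasmacytoid cells had 5 and 1.

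Of 21 tested cytokines and growth factors, 8 were higher and 3 lower, with a median of 0.23. In barcodes of 1000 to under 2000 UMIs, none of them members, 7 could be tested and gave 0 higher and 4 lower, with a median of -1.64. Over all genes, more were called lower than higher in those barcodes, with counts given at the end. Of the 968 genes tested in both sets of cells, 65.9% had the same sign there. This background applies to the other lists counted in those barcodes as well. Il1b (chromosome 2, 129364570 to 129371139), interleukin-1 beta, was at 547, 1106 and 2273 CPM in replicate 1 and 2259.6, 4113 and 6295 CPM in replicate 2. Replicate 2 had more Il1b in every tier, so that its low tier was close to the high tier of replicate 1, and the 3.4-fold rise is within libraries (log2 fold change 1.76, SE 0.10, adjusted p = 4.13e-12). It was widespread: 66.7% and 88.5% of thinned high cells had a UMI, against 30.8% and 72.3% of low cells and 4.9% and 12.5% of epithelial cells. Il1a rose from 60.0 to 168 CPM in replicate 1 and from 72.9 to 137 CPM in replicate 2 (log2 fold change 1.23, SE 0.15, adjusted p = 1.71e-06), Tnf from 283 to 505 CPM in replicate 1 and from 174 to 298 CPM in replicate 2 (log2 fold change 0.81, SE 0.11, adjusted p = 8.6e-06) and Tnfsf13b, the B cell factor BAFF, from 26.2 to 65.5 CPM in replicate 1 and from 41.5 to 92.8 CPM in replicate 2 (log2 fold change 1.24, SE 0.17, adjusted p = 7.7e-06). Il12b rested on 2 UMIs in the low and 29 in the high tiers, a pooled ratio of 17.5 with a counting interval of 4.44 to 152, and its middle tiers were as high or higher, at 24.4 and 16.1 CPM against 6.96 and 14.5 CPM in the high tiers. Il10, the anti-inflammatory cytokine, was at 199 against 201 CPM in replicate 1 and 93 against 116 CPM in replicate 2 and was not called (adjusted p = 0.558).

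Cd86, the B7-2 ligand of CD28, was at 122, 219 and 344 CPM in replicate 1 and 189, 266 and 458 CPM in replicate 2, with no overlap between low and high tiers and a fold of 2.61 (log2 fold change 1.39, SE 0.12, adjusted p = 3.42e-09). Of 15 tested costimulatory and checkpoint genes 5 were higher, among them Havcr2, which encodes TIM-3 (log2 fold change 1.30, SE 0.16, adjusted p = 2.45e-06), and 3 were lower, among them Cd24a (log2 fold change -1.32, SE 0.22, adjusted p = 0.000105). Cd274, the gene of PD-L1, was at 25 against 26.7 CPM in replicate 1 and 14.1 against 20.4 CPM in replicate 2 and was not called (log2 fold change 0.24, SE 0.26, adjusted p = 0.604). Among 22 tested Toll-like receptors and sensors 7 were higher and 1 was lower, with a median of 0.31. Cd14, the lipopolysaccharide coreceptor, rose from 1313 to 3080.1 CPM in replicate 1 and from 2342 to 4642 CPM in replicate 2 (log2 fold change 1.11, SE 0.08, adjusted p = 5.1e-10) and Tlr2 from 359.8 to 637 CPM in replicate 1 and from 541 to 978 CPM in replicate 2 (log2 fold change 0.84, SE 0.09, adjusted p = 5.22e-07). Tlr12 rose 4.46-fold on 23 and 77 UMIs (adjusted p = 5.9e-05).

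Of 23 tested genes of the interferon gamma response 10 were higher and 1 lower, with a median of 0.51. In barcodes of 1000 to under 2000 UMIs 0 of 6 were higher and 1 was lower, with a median of -0.38. Fcgr4, an activating receptor for IgG, was at 107, 208 and 321 CPM in replicate 1 and 106, 245 and 347 CPM in replicate 2, 3.11-fold higher in the high tier (log2 fold change 1.64, SE 0.12, adjusted p = 3.26e-10). The receptor chains Ifngr1 and Ifngr2 rose by 0.82 and 0.53 and the transcription factor Irf8 by 0.50 on the log2 scale. Irf1, a transcription factor that interferon gamma induces, stood at 0.11 (SE 0.20) and was not called. Serpina3g was carried by replicate 1, at 4.58, 29.5 and 35.4 CPM in replicate 1 and 2.01, 0.807 and 3.41 CPM in replicate 2, and its log2 fold change went from 2.64 to 1.51, no longer called, without the cells that had dendritic cell transcripts. Cxcl9, a chemokine for T cells that was called higher, was at 97.5 against 275 CPM in replicate 1 and 8.03 against 7.66 CPM in replicate 2, so the difference was that of replicate 1 alone. Of 24 tested type I interferon genes 1 was higher (Isg15, log2 fold change 0.71, SE 0.14, adjusted p = 0.000547) and 3 were lower, with a median of -0.07. Isg15 was no longer called with C1q at 1% or more (log2 fold change 0.45).

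Chemokine genes went both ways, with 7 of 16 tested higher and 6 lower, and with 1 higher and 7 lower of 12 in barcodes of 1000 to under 2000 UMIs. Cxcl16, a scavenger receptor and ligand of CXCR6, rose from 494 to 1203 CPM in replicate 1 and from 829 to 1451 CPM in replicate 2 (log2 fold change 1.04, SE 0.10, adjusted p = 6.06e-08). The inflammatory chemokine genes Ccl3, Ccl4 and Ccl5 rose by 0.78, 0.83 and 1.23 on the log2 scale. Monocyte-attracting genes were lower: Ccl2 went from 2975 to 1408 CPM in replicate 1 and from 887 to 290.4 CPM in replicate 2 (log2 fold change -1.33, SE 0.11, adjusted p = 6.39e-09), Ccl7 from 4512 to 2045 CPM in replicate 1 and from 1326 to 459.8 CPM in replicate 2 (log2 fold change -1.33, SE 0.11, adjusted p = 1.6e-09) and Ccl12 from 1044 to 665 CPM in replicate 1 and from 608 to 224 CPM in replicate 2 (log2 fold change -0.99, SE 0.13, adjusted p = 2.8e-06). Ccl8, a chemokine made by resident macrophages, was at 7936, 3495 and 1038 CPM in replicate 1 and 2589.5, 1192 and 139 CPM in replicate 2, and the low tier was 10.6-fold above the high tier (log2 fold change -3.41, SE 0.18, adjusted p = 8.29e-13). Ccl17 and Ccl22, ligands of CCR4, were called higher (2.07 and 1.81), but 3 cells held 95.3% of the Ccl17 UMIs and 91.7% of the Ccl22 UMIs in the high tier of replicate 1.

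**Figure D3:**
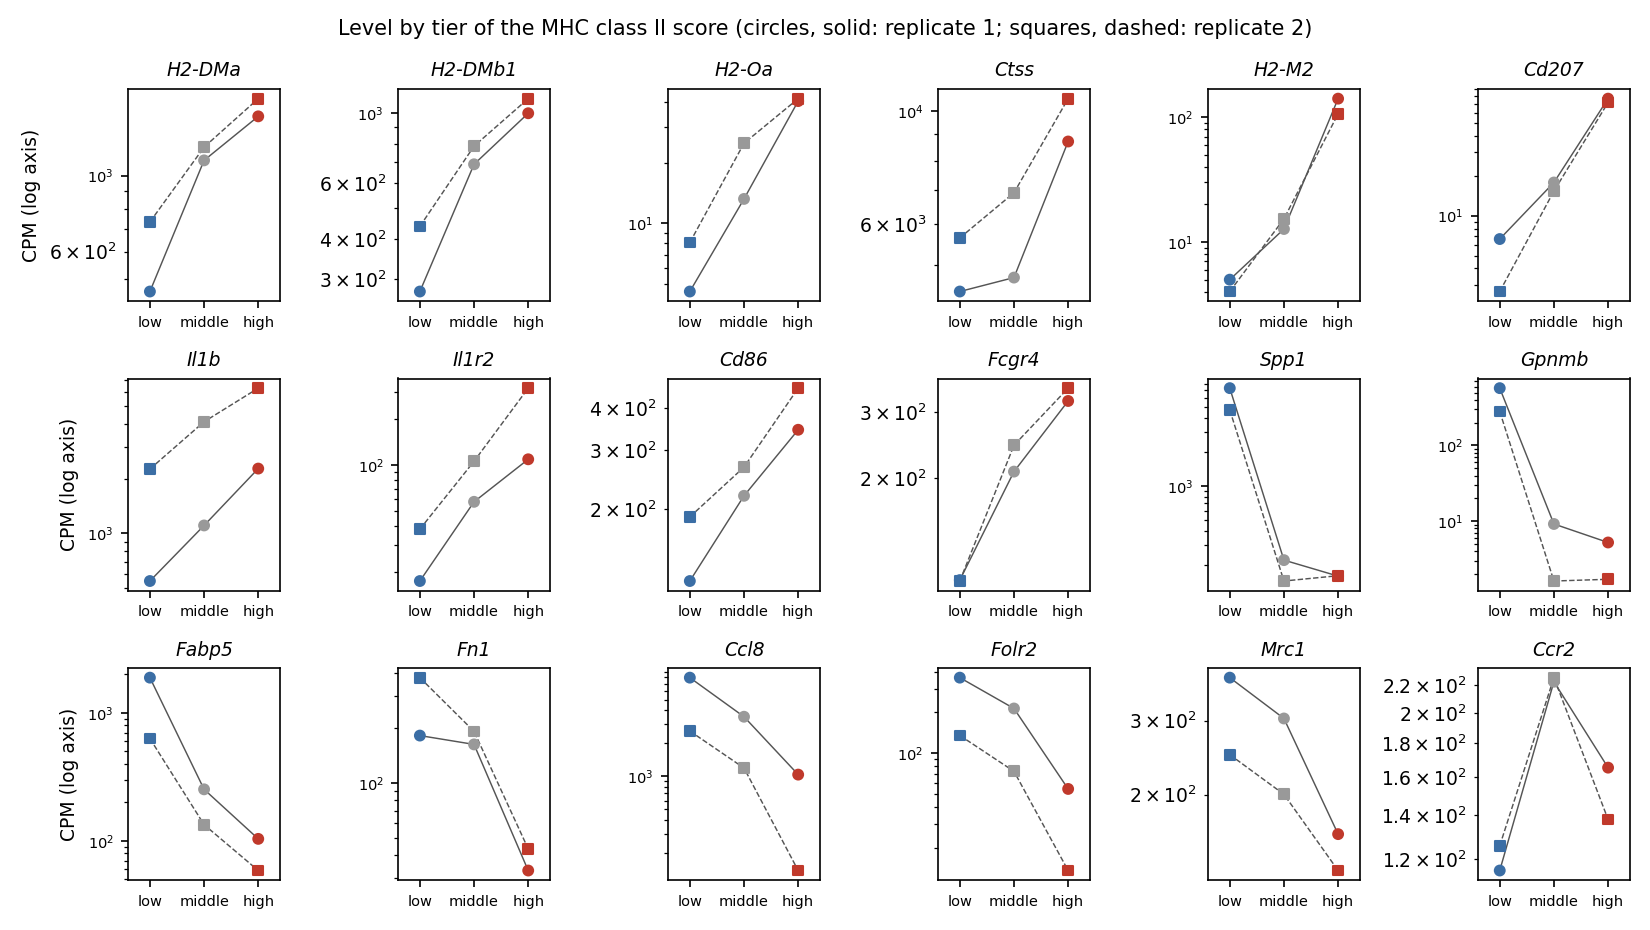
Level in CPM (vertical axis, log scale, each panel with its own range) of 18 genes in the low, middle and high tiers (horizontal axis) of replicate 1 (circles, solid lines) and replicate 2 (squares, dashed lines). The class II partners, H2-M2, Cd207, Il1b, Il1r2, Cd86 and Fcgr4 climb with the score in both libraries, Spp1 and Gpnmb are high in the low tier alone, Folr2 and Mrc1 fall in steps, and Ccr2 peaks in the middle tier.

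Genes of resident macrophages were the most often lower. Of 24 tested scavenger and lectin genes 19 were lower in the high tier and 0 were higher, with a median log2 fold change of -2.16. Folr2 (chromosome 7, 101839988 to 101857194), the folate receptor beta, was at 361, 214 and 54.5 CPM in replicate 1 and 135, 73.5 and 13.6 CPM in replicate 2, 7.31-fold lower in the high tier (log2 fold change -2.87, SE 0.16, adjusted p = 2.25e-12). Mrc1, the mannose receptor CD206, was at 379, 303 and 161 CPM in replicate 1 and 249, 200.3 and 132 CPM in replicate 2 (log2 fold change -1.09, SE 0.12, adjusted p = 3.31e-07). F13a1, the A subunit of coagulation factor XIII, fell 7.07-fold from 372 to 59.1 CPM in replicate 1 and from 143 to 14.5 CPM in replicate 2 (adjusted p = 3.02e-12). Lyve1, the hyaluronan receptor of perivascular macrophages, had 114 UMIs in the low and 0 in the high tiers, at least 31.4-fold lower against a floor of 3 counts over both libraries. All but 6 of those UMIs came from replicate 1. Cd209f, a DC-SIGN homologue, was at 270.3, 85.5 and 5.8 CPM in replicate 1 and 8.03, 8.07 and 0 CPM in replicate 2 (log2 fold change -5.51, SE 0.32, adjusted p = 3.94e-12), again mostly in replicate 1. Pf4 itself was at 1647, 1104 and 514 CPM in replicate 1 and 1007, 588 and 241 CPM in replicate 2 (log2 fold change -1.85, SE 0.10, adjusted p = 2.25e-12). The transcription factor gene Maf fell by 1.26 on the log2 scale (adjusted p = 1.15e-05).

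Lipid-associated genes divided. Of 22 tested, 10 were lower and 3 higher, with a median of -0.39. Spp1 (chromosome 5, 104435118 to 104441050) was at 7283, 219.9 and 159 CPM in replicate 1 and 4669.8, 144 and 160.1 CPM in replicate 2, so the low tiers stood alone, and the middle and high tiers had no common order (log2 fold change -5.21, SE 0.13, adjusted p = 1.16e-19). Gpnmb (chromosome 6, 49036546 to 49070929), a lysosomal glycoprotein, had the same shape, at 571, 9.16 and 5.22 CPM in replicate 1 and 281, 1.61 and 1.7 CPM in replicate 2 (log2 fold change -6.89, SE 0.23, adjusted p = 9.4e-17). Fabp5, the epidermal fatty acid binding protein, was at 1885, 253 and 104 CPM in replicate 1 and 631, 134 and 58.8 CPM in replicate 2 (log2 fold change -3.88, SE 0.15, adjusted p = 1.89e-15), falling in 2 steps. Ctsd, cathepsin D, went from 3650.4 to 755 CPM in replicate 1 and from 3249.9 to 663 CPM in replicate 2 (log2 fold change -2.28, SE 0.11, adjusted p = 2.3e-13) and Trem2, a lipid receptor of macrophages, from 664 to 287 CPM in replicate 1 and from 733 to 353 CPM in replicate 2 (log2 fold change -1.13, SE 0.11, adjusted p = 3.03e-08). Apoe, by contrast, rose from 22206 to 34455 CPM in replicate 1 and from 27735 to 42023 CPM in replicate 2 (log2 fold change 0.62, SE 0.06, adjusted p = 6.15e-08), as did Axl (log2 fold change 0.81, SE 0.12, adjusted p = 2.29e-05) and Cd63 (log2 fold change 0.29, SE 0.08, adjusted p = 0.0164). Pdpn, podoplanin, fell 7.11-fold and Syngr1, synaptogyrin 1, 7.61-fold (adjusted p = 3.94e-09 and 3.42e-10). Saa3, an acute phase protein, was at 51.2, 1.53 and 4.06 CPM in replicate 1 and 234, 4.04 and 0 CPM in replicate 2 (log2 fold change -5.62, SE 0.39, adjusted p = 1.78e-10), but 3 cells held 83.1% of its UMIs in the low tier of replicate 2.

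Arg1 (chromosome 10, 24915221 to 24927484), arginase 1, had 279 UMIs in the low and 1 in the high tiers, a pooled ratio of 231 with a counting interval of 41.1 to 9146. A UMI was seen in 7.9% and 8.9% of low cells. Nos2, the inducible nitric oxide synthase often set against it, had 1 UMI in each. Of 23 tested glycolysis and hypoxia genes 9 were lower and 1 higher, with a median of -0.38. Mif, the macrophage migration inhibitory factor, went from 409.8 to 173 CPM in replicate 1 and from 427 to 201 CPM in replicate 2 (log2 fold change -1.17, SE 0.11, adjusted p = 3.03e-08), Hif1a fell by 0.63 and Vegfa by 0.54 on the log2 scale (adjusted p = 0.0096 and 0.0244), while Ldha stood at -0.05 (SE 0.10). Slc2a1, the glucose transporter GLUT1, was the exception (log2 fold change 0.65, SE 0.18, adjusted p = 0.0139). Without TMM 12 were lower and 0 higher, and DESeq2 called 2 lower and 0 higher. Iron genes had 3 higher and 3 lower of 13, with Tfrc, the transferrin receptor, and Cp, ceruloplasmin, down by 2.30 and 2.15 on the log2 scale. Without TMM 7 were lower and 2 higher. For both lists, the background without TMM was a median of -0.16 over all tested genes, with 31.5% of called genes higher.

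Genes of monocyte-derived cells gave 10 lower and 5 higher of 19 tested, with a median of -0.89. Fn1, fibronectin, was at 182, 162 and 33 CPM in replicate 1 and 377, 191 and 43.4 CPM in replicate 2. The fall lay between the middle and the high tier in replicate 1 and was gradual in replicate 2 (log2 fold change -2.80, SE 0.18, adjusted p = 4.2e-11). Retnla, which encodes the resistin-like protein RELM alpha, was at 2894, 4681 and 993 CPM in replicate 1 and 2517, 1249 and 506 CPM in replicate 2 (log2 fold change -1.98, SE 0.20, adjusted p = 1.18e-07), and 3 cells held 51.6% of its UMIs in the low tier and 87.7% in the high tier of replicate 2. Ear2, an eosinophil-associated ribonuclease, was at 63.7, 184 and 46.4 CPM in replicate 1 and 148, 191 and 20.4 CPM in replicate 2 (log2 fold change -1.47, SE 0.29, adjusted p = 0.000721), with its highest level in the middle tier. S100a4 and S100a6, small calcium-binding proteins of recently arrived monocytes, fell by 0.97 and 0.97 on the log2 scale, also from the middle tier on. Ccr2 (chromosome 9, 124101950 to 124113557), the receptor that brings monocytes into tissue, was at 115, 223 and 165 CPM in replicate 1 and 126, 226 and 138 CPM in replicate 2. Its middle tiers were above all low and high tiers, and the high against the low tier was not called (log2 fold change 0.35, SE 0.13, adjusted p = 0.0796). The 5 genes that were higher were Napsa, Ms4a4c, Ms4a6b, Fcgr1 and Cx3cr1, led by Napsa, an aspartic protease (log2 fold change 1.04, SE 0.16, adjusted p = 3.04e-05). With C1q at 1% or more, 5 were lower and 2 higher.

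Many genes of the immediate early and heat shock list were higher, though class II partners had a larger share, 10 of 15. Of 25 tested 15 were higher and 2 lower, against 8.64% and 6.3% of all tested genes, with a median of 0.49. Fos rose from 918 to 2012 CPM in replicate 1 and from 671 to 1029 CPM in replicate 2 (log2 fold change 0.89, SE 0.10, adjusted p = 6.92e-07), Btg2 from 183 to 403 CPM in replicate 1 and from 209 to 369.6 CPM in replicate 2 (log2 fold change 0.99, SE 0.11, adjusted p = 6.29e-07) and Hspa1a, an inducible HSP70, from 221 to 588 CPM in replicate 1 and from 386 to 599 CPM in replicate 2 (log2 fold change 1.02, SE 0.13, adjusted p = 2.56e-06), while Jund fell (log2 fold change -0.84, SE 0.16, adjusted p = 0.000473). Such genes also respond to tissue dissociation, whose part in the result was not tested. The list went the other way in barcodes of 1000 to under 2000 UMIs. There 0 of 20 tested were higher and 9 were lower, with a median of -0.83. Of the 968 genes tested in both sets of cells, 65.9% had the same sign there. Hspa1a and Btg2 were at -0.66 and -0.10 there on the log2 scale. The mitochondrial share, a sign of cell quality, was lower in the high tiers, as given above, and its part was not tested either.

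Other groups changed in part. Lysosomal genes had 7 higher and 4 lower of 24, with the protease gene Ctsh (log2 fold change 0.59, SE 0.09, adjusted p = 6.99e-05) up and Lamp1 (log2 fold change -0.79, SE 0.11, adjusted p = 1.42e-05) and Atp6v0d2, a subunit of the vacuolar proton pump (log2 fold change -3.50, SE 0.58, adjusted p = 0.000108), down. Without TMM 6 were higher and 7 lower, on a scale where the median of all tested genes was -0.16. Matrix remodelling genes had 6 higher and 6 lower of 21: Mmp13 and Mmp12, a collagenase and an elastase, rose (log2 fold change 1.91, SE 0.26, adjusted p = 6.69e-06, and log2 fold change 1.44, SE 0.23, adjusted p = 5.94e-05), and Vcam1, the adhesion molecule, went from 63.3 to 147 CPM in replicate 1 and from 109 to 166 CPM in replicate 2 (log2 fold change 0.92, SE 0.16, adjusted p = 0.000155), while Adam8 and Timp2 fell by 1.37 and 1.25 on the log2 scale. Complement and Fc receptor genes had 3 higher and 4 lower of 15, with Itgax, the gene of the CD11c used for the selection, at 90.0 against 159 CPM in replicate 1 and 130.5 against 193 CPM in replicate 2 (log2 fold change 0.70, SE 0.13, adjusted p = 0.000379) and C4b, complement component 4, at 171 against 53.3 CPM in replicate 1 and 95 against 46.8 CPM in replicate 2 (log2 fold change -1.42, SE 0.17, adjusted p = 8.63e-07). Of 32 tested transcription factor genes 6 were higher and 3 lower, with a median of 0.12. Without TMM 5 were higher and 7 lower, with a median of -0.03, and in barcodes of 1000 to under 2000 UMIs 0 of 13 were higher and 7 were lower. Spi1, which encodes PU.1, rose by 0.43 and Runx3 by 0.77 on the log2 scale (adjusted p = 0.00399 and 9.55e-05), and Cebpb fell by 1.10 (adjusted p = 2.29e-05). Irf4 fell on 44 and 12 UMIs (adjusted p = 0.0281) and was not called with C1q at 1% or more (adjusted p = 0.195). Arginine, tryptophan and eicosanoid enzymes gave 4 in each direction of 17, with the prostaglandin D synthase Hpgds up (log2 fold change 0.55, SE 0.13, adjusted p = 0.00304) and the leukotriene C4 synthase Ltc4s down (log2 fold change -1.55, SE 0.20, adjusted p = 4.83e-06).

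Removal of the Spp1 and Pf4 cells left 631 and 446 macrophages, tiers of 210 and 148 cells, and median scores from 3.27% to 7.85% in replicate 1 and from 3.71% to 8.99% in replicate 2. Of 6740 tested genes 322 were higher (4.78%) and 202 lower (3%), in all 7.77%. Those that differed by 2-fold or more numbered 52 and 80. The fold had the same sign in both libraries for 522 of 524 called genes, and the middle tier lay between for 407 (77.7%), against 20.7% of all tested genes. These counts are descriptions here too, for the reasons given above. Over all tested genes the folds of the libraries correlated at 0.34 (Pearson) and 0.31 (Spearman). Both comparisons share cells, so the values below stand side by side and no test was made between them. Spp1 and Pf4 now chose the cells and are not tested here. Cells under those limits still carried both genes, with 870 Spp1 UMIs in the low and 236 in the high tiers over both libraries. Pf4 had 487 and 252 UMIs there. The part of such cells in the differences below was not tested. Without the cells that had 2 or more dendritic cell UMIs, 285 genes were higher and 138 lower.

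Of 12 tested class II partners 7 were higher and 0 lower, with a median of 0.86, against 0.94 over 15 tested genes among all macrophages. H2-DMa rose by 0.85 (1.44 before), H2-Oa by 2.32 (2.77 before), Ctss by 1.06 (0.94 before) and Cd83 by 0.96 in both comparisons, on the log2 scale. Ciita (log2 fold change 0.81, SE 0.49, adjusted p = 0.379), H2-Ob (log2 fold change 0.86, SE 0.34, adjusted p = 0.13) and H2-DMb2 (log2 fold change -0.02, SE 0.29, adjusted p = 0.984) were not called. H2-M2 was at 5.77, 31.9 and 212 CPM in replicate 1 and 3.35, 21.6 and 133 CPM in replicate 2 (log2 fold change 5.20, SE 0.25, adjusted p = 5.48e-12). Cd207 rose by 2.45 and Il1r2 by 2.03 (adjusted p = 4.96e-07 and 2.1e-07). Il1b was at 1070.3 against 2587 CPM in replicate 1 and 2807 against 6489 CPM in replicate 2 (log2 fold change 1.24, SE 0.10, adjusted p = 1.83e-08), Cd86 at 166 against 359 CPM in replicate 1 and 203 against 465 CPM in replicate 2 (log2 fold change 1.16, SE 0.12, adjusted p = 4.96e-07) and Fcgr4 at 151 against 358 CPM in replicate 1 and 110.5 against 359 CPM in replicate 2 (log2 fold change 1.45, SE 0.13, adjusted p = 1.32e-07). Class I genes gave 8 higher and 0 lower of 22, with a median of 0.36, and cytokines 5 higher and 0 lower of 18. Il10, not called before, was now higher (log2 fold change 0.60, SE 0.17, adjusted p = 0.0341). Immediate early and heat shock genes gave 11 higher and 1 lower of 25.

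**Figure D4:**
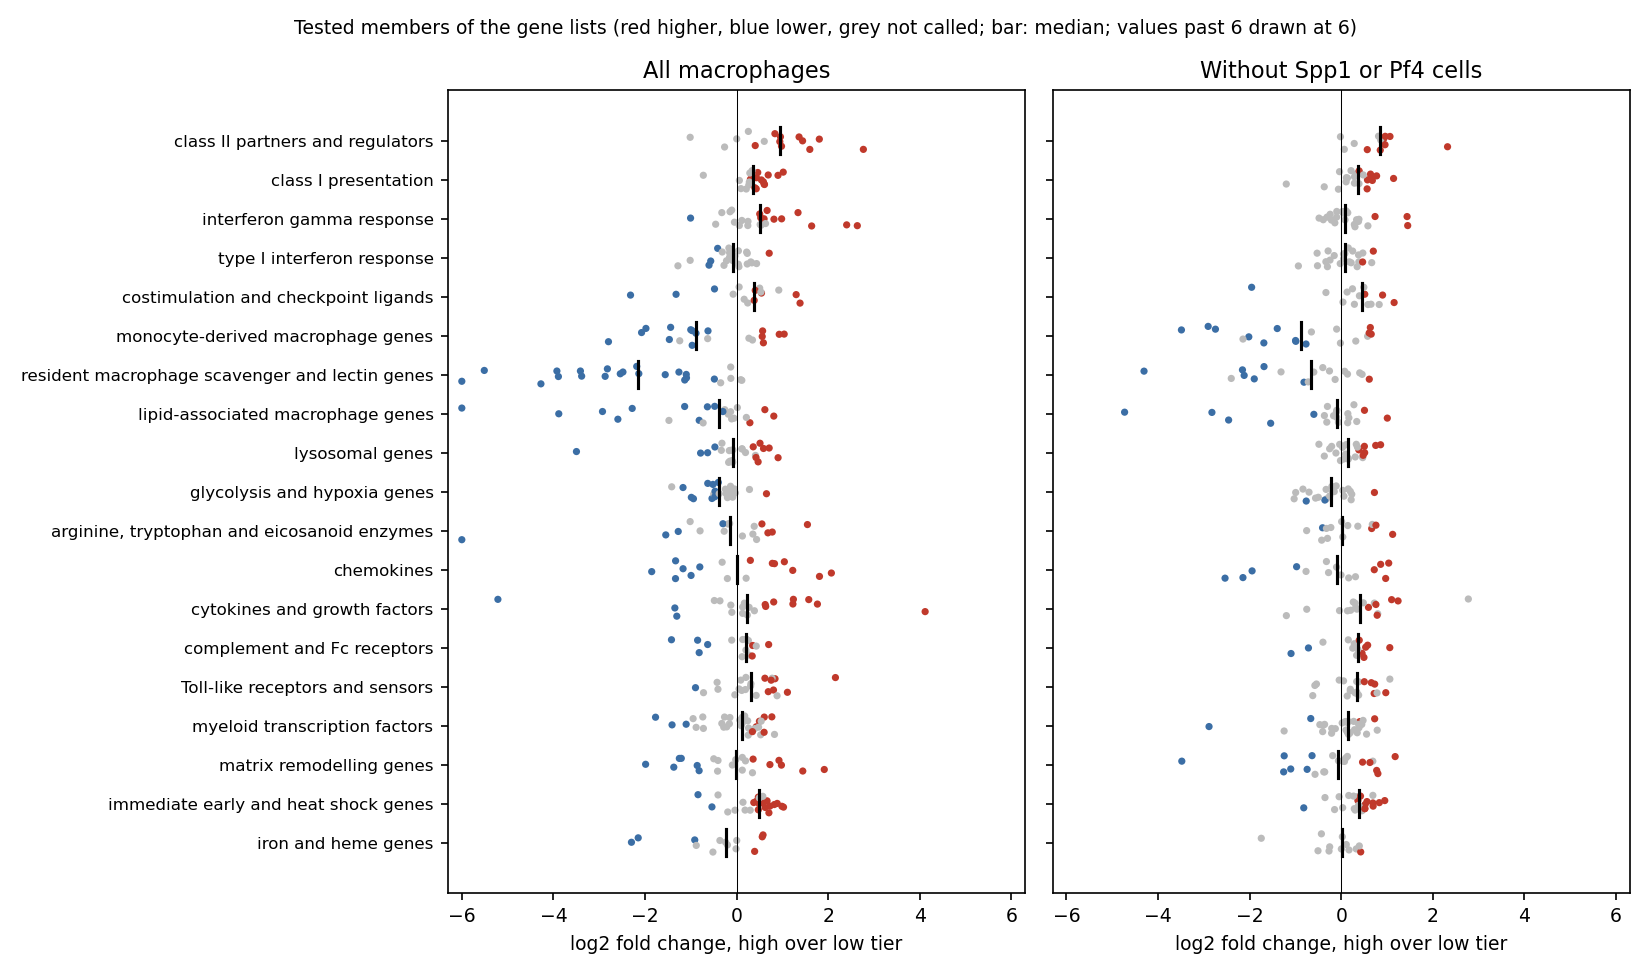
Log2 fold change of the high over the low tier (horizontal axis) for each tested member of the 19 gene lists (vertical axis), among all macrophages (left) and without Spp1 or Pf4 cells (right), with higher genes in red, lower genes in blue, others in grey and the list's median as a bar; values past 6 are drawn at 6. Class II partners have medians of 0.94 over 15 tested genes and 0.86 over 12. The resident list has -2.16 over 24 and -0.66 over 18, so the medians compare different sets of genes.

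Of 18 tested resident macrophage genes 6 were lower and 1 higher (Sepp1, selenoprotein P, log2 fold change 0.61, SE 0.10, adjusted p = 0.000332). The median was -0.66, against -2.16 over 24 genes before. The tested genes differ, as some that were lower before, such as Lyve1, could not be tested here. Folr2 was still lower, at 51.2 against 12 CPM in replicate 1 and 41 against 8.77 CPM in replicate 2 (log2 fold change -2.16, SE 0.39, adjusted p = 0.000656), and so was Ccl8, at 1384 against 399 CPM in replicate 1 and 526 against 88.8 CPM in replicate 2 (log2 fold change -2.12, SE 0.16, adjusted p = 6.84e-09). Mrc1 was at 141 against 99.3 CPM in replicate 1 and 111 against 112 CPM in replicate 2 and was not called (log2 fold change -0.26, SE 0.16, adjusted p = 0.406). Ccl2 (log2 fold change -0.01, SE 0.13, adjusted p = 0.989), Ccl7 (log2 fold change -0.32, SE 0.11, adjusted p = 0.0871) and Ccl12 (log2 fold change -0.10, SE 0.12, adjusted p = 0.724) were not called either. Gpnmb went on 156 and 4 UMIs from 98 to 3.01 CPM in replicate 1 and from 16.7 to 1.1 CPM in replicate 2 (log2 fold change -4.73, SE 0.44, adjusted p = 1.32e-07), and Fabp5 from 559 to 71.2 CPM in replicate 1 and from 364 to 58.1 CPM in replicate 2 (log2 fold change -2.82, SE 0.15, adjusted p = 1.99e-11). Arg1 was left with 18 and 1 UMIs, a pooled ratio of 14.6 with a counting interval of 2.31 to 609. Glycolysis and hypoxia genes gave 2 lower and 1 higher of 22. Genes of monocyte-derived cells gave 9 lower and 3 higher of 18, with a median of -0.88. Fn1 was at 225, 112 and 16.1 CPM in replicate 1 and 375, 96.2 and 37.3 CPM in replicate 2, 11.2-fold lower in the high tier (log2 fold change -3.49, SE 0.23, adjusted p = 9.76e-10). Ear2 was at 197, 141 and 38.1 CPM in replicate 1 and 237, 142 and 18.6 CPM in replicate 2 (log2 fold change -2.91, SE 0.21, adjusted p = 3.7e-09), S100a4 at 385, 354 and 126 CPM in replicate 1 and 446, 358 and 130.5 CPM in replicate 2 (log2 fold change -1.69, SE 0.12, adjusted p = 3.7e-09) and Retnla at 3522 against 254 CPM in replicate 1 and 2675 against 630.4 CPM in replicate 2 (log2 fold change -2.75, SE 0.34, adjusted p = 7.33e-06). Each of these 4 genes had its highest level in the low tier of both libraries, where Ear2 and S100a4 had peaked in the middle tier among all macrophages. Few cells held most Retnla UMIs in the low and high tiers of replicate 2 among all macrophages, as given above. That share was not measured anew here. Ccr2 was at 124, 178 and 111 CPM in replicate 1 and 131, 166 and 127 CPM in replicate 2 and was again not called (log2 fold change -0.10, SE 0.15, adjusted p = 0.785). Genes of the interferon gamma list gave 3 higher and 0 lower of 23, with a median of 0.08: Gbp8, Fcgr4 and Ifngr1. Ccl17 and Ccl22 were called lower here (-1.95 and -2.15), against higher before, and Ccl17 had a log2 fold change of 1.65 where the tiers of all macrophages were kept.

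**Figure D5:**
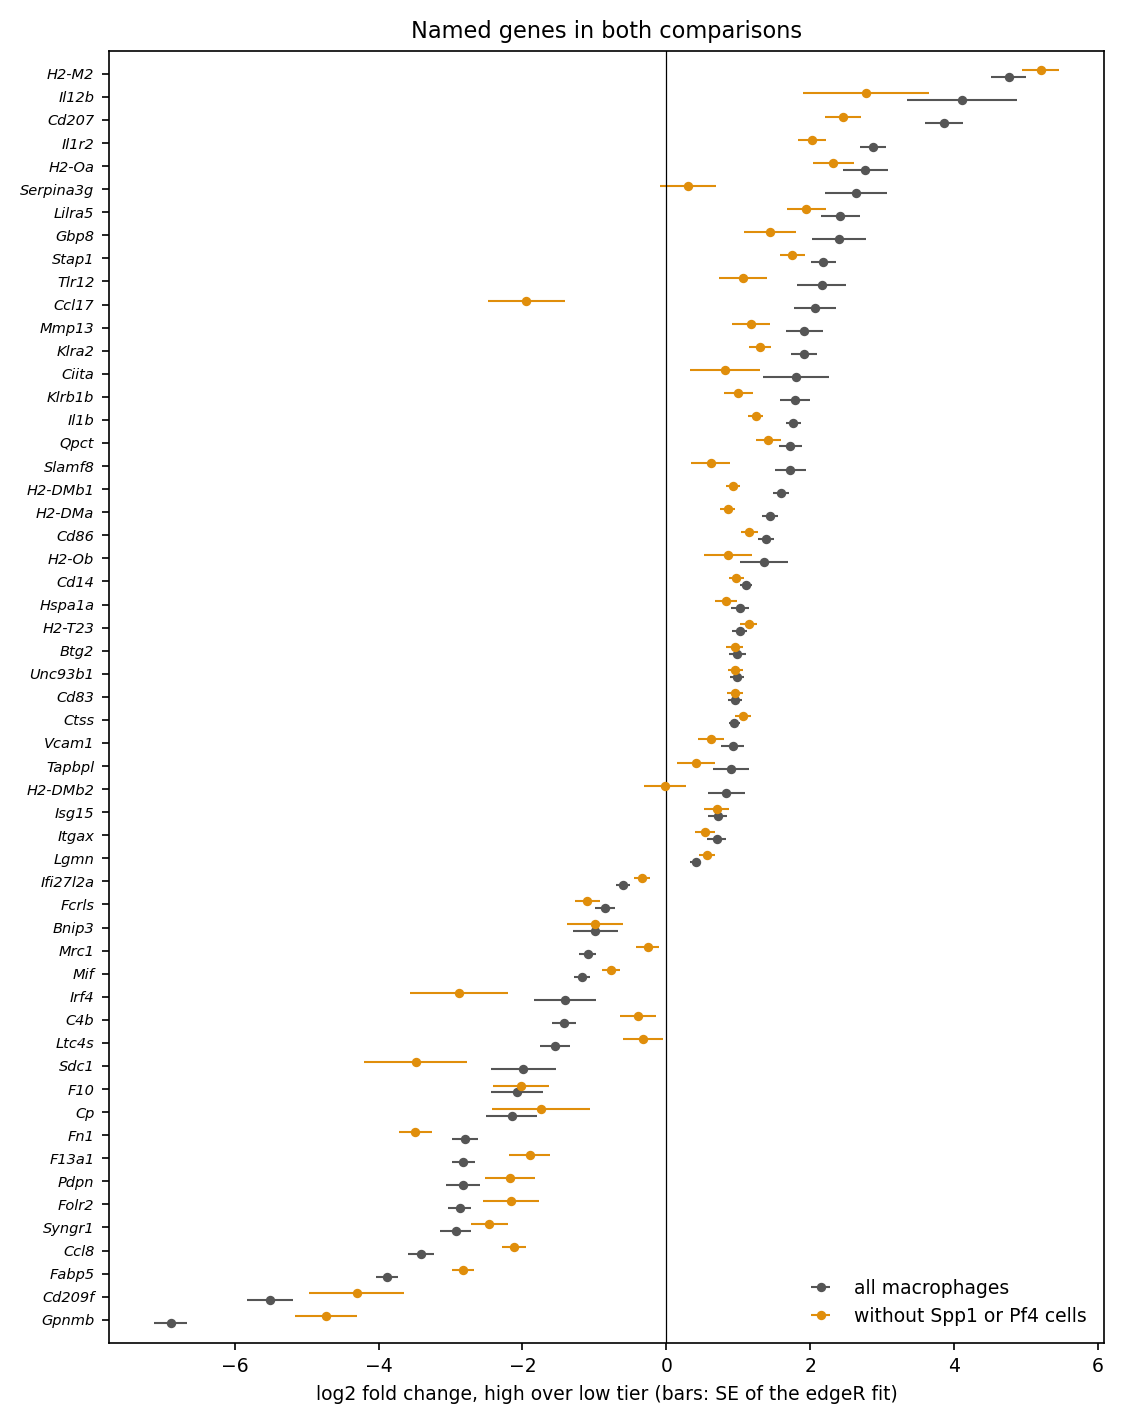
Log2 fold change of the high over the low tier with the SE of the fit (horizontal axis) for named genes tested in both comparisons and called in at least 1 (vertical axis), in grey among all macrophages and in orange without Spp1 or Pf4 cells. H2-M2 is at 4.76 and 5.20, Mrc1 moves from -1.09 to -0.26, Fn1 from -2.80 to -3.49, and Ccl17 changes sign.

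Finer steps of the score were also taken. With 6 steps of 177 or 178 cells in replicate 1 and 95 or 96 in replicate 2, median scores ran from 0.882% to 8.10% and from 0.994% to 10.0%. H2-DMa was higher at every step in both libraries, from 326 to 1487 CPM in replicate 1 and from 481 to 1660.0 CPM in replicate 2. H2-M2 stayed under 10 CPM in the lowest 3 steps and reached 210.2 and 149 CPM at the top. Il1b was higher at every step in replicate 1, from 422 to 2612 CPM, and in replicate 2 from 1749 to 6265 CPM one step below the top, with 5579 CPM at the top. Spp1 was at 11893, 2324 and 316 CPM in the lowest 3 steps of replicate 1 and at 8024, 1477 and 185 CPM in those of replicate 2. Fn1 was at 200.5, 184 and 198 CPM in the lowest 3 steps of replicate 1 and ended at 24.0 CPM, and in replicate 2 went from 398 CPM at its highest, one step above the bottom, to 27.0 CPM. Ccr2 was lowest in the bottom step, at 68.9 and 79.7 CPM, highest 2 steps later, at 230.0 and 237 CPM, and back at 111 and 125 CPM at the top. Folr2 was lower at every step in replicate 1, from 395 to 26.3 CPM, and in replicate 2 stood at 182, 95.2, 79.9, 67.7, 9.24 and 16.9 CPM from the bottom step to the top. These steps reuse the cells of the comparison and carry no test of their own.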

How the data were processed

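The deposited files held UMI counts per gene and barcode from 2 libraries, in whole numbers, with 737280 barcodes and 27998 genes each; the authors used Cell Ranger 2.2.0 and mm10, per the submitters' processing notes. Nothing deposited marks cells, doublets or cell types.

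Counts were summed per library and tier (6 sums) and fitted with edgeR 4.0.16 (R 4.3.3; quasi-likelihood test, TMM factors, filterByExpr, terms for library and tier, 2 residual degrees of freedom). The tiers of a library come from 1 capture, so the library was the block in every fit except the alternative without it. Called means a Benjamini-Hochberg adjusted p under 0.05 over all tested genes; all p-values are two-sided. The SE is the log2 fold change over the root of the F statistic. CPM are computed here from TMM-scaled totals without the 4 score genes; sums over marker lists and the values in 6 score steps use those totals without TMM. C1q, cycling and mitochondrial genes, which chose the cells, were not tested. n is 2 libraries throughout, numbered in accession order, and p-values measure only the spread between these sums, which may be technical. Choosing tiers from the same cells leaves the tests dependent on the score's correlates.

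Members and gene lists were chosen with earlier results of these data known. Named genes were the class II list in full, up to 2 called genes of each other list with the largest fold, the 10 largest rises and falls with 50 CPM or more in the higher tier of both libraries, and 10 genes of general interest; other list members are named as examples, chosen after their values were seen. Gene positions are from GENCODE M21 (GRCm38, the mm10 build), by identifier for all 75 named genes. Scrublet (scanpy 1.11.5) scores marked 33 and 13 barcodes as likely doublets at 0.8% per 1000 barcodes; they stayed in except in an alternative. Free RNA was not subtracted. The test was checked on simulated sums with known folds. These did not model the choice of tiers by score, so the check does not cover that dependence. Some genes are not reported here, by name or in the plots of named genes, though they stay in the fits and in the counts of lists.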

Additional observations from a re-analysis of the deposited data

How the results depend on the processing

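Among all macrophages, 673 higher and 491 lower genes became 434 and 944 without TMM, 299 and 114 with DESeq2 1.42.0, 342 and 234 with cells thinned to 2000 UMIs, and 88 and 129 in barcodes of 1000 to under 2000 UMIs, and 322 were lower with C1q at 1% or more. Without Spp1 or Pf4 cells, 322 and 202 became 187 and 379 without TMM, 156 and 39 with DESeq2, 161 and 90 with thinned cells, 180 and 90 with 2 score classes in place of 3, 211 and 80 with C1q at 1% or more, 209 and 99 with tiers within depth strata, and 18 and 16 in barcodes of 1000 to under 2000 UMIs, and 131 were lower with the low and high tiers only. With no replicate block, so that the library pairing of tiers was dropped, the counts were 23 and 17, and 17 and 10. Among named genes, 47 lost the call in the first comparison and 29 in the second. The named genes tested numbered 72 and 60, but some of these were not called to begin with, so the shares lost among called genes were larger. The cause of these differences was not tested.

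With 1 library left out no residual degrees of freedom remain, so only genes past 2-fold with 50 CPM or more in the higher tier were counted, with no test: 72 higher became 56 to 116 and 62 lower became 59 to 74, and without Spp1 or Pf4 cells 30 became 50 to 51 and 29 became 31 to 43. In barcodes of 1000 to under 2000 UMIs the sign reversed for Cd83 (-0.12), Hspa1a (-0.66) and Btg2 (-0.10) and, without Spp1 or Pf4 cells, for Hspa1a (-0.95), Btg2 (-0.42) and Il1b (-0.13). Ccl17 reversed to -0.60 with outer sixths and, without Spp1 or Pf4 cells, to 1.41 with 2 score classes in place of 3, 1.23 within depth strata and 1.65 with the tiers of all macrophages kept. In those barcodes, 331 of 442 called genes had the sign of the larger cells (74.9%), against 65.9% of all tested genes. Depth limits genes under about 50 UMIs in a tier, and 2 libraries limit every p-value.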

Other observations

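A cytokine gene and a receptor gene outside the named lists were called higher in the high tier, and both were picked after their values were seen. Ifnb1, interferon beta, was at 2.92, 21.4 and 25.5 CPM in the low, middle and high tiers of replicate 1 and at 4.01, 5.65 and 28.9 CPM in replicate 2 (edgeR, log2 fold change 3, SE 0.44, adjusted p = 2.02e-05, n = 2). Clec1b, the receptor CLEC-2 for podoplanin, was at 0.833 and 6.96 CPM in the low and high tiers of replicate 1 and at 0.669 and 11.1 CPM in replicate 2 (edgeR, log2 fold change 3.36, SE 0.69, adjusted p = 0.00122, n = 2). These levels were low, and Ifnb1 in the middle tier of replicate 2 was near its low tier.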
